A study of Mus musculus with 6 samples.

Results

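The unfolded protein response depends on a small set of proteins in the membrane of the endoplasmic reticulum (ER) and on the enzymes that activate them. Here 9 of their genes were followed in MIN6 cells, out of 22298 genes in the deposited table. They were taken by symbol: the sensors Ern1 (IRE1α), Eif2ak3 (PERK), Atf6 (ATF6α) and Atf6b (ATF6β), the related factor Creb3l2 (BBF2H7), the IRE1 substrate Xbp1, the activating proteases Mbtps1 (site-1 protease) and Mbtps2 (site-2 protease), and Wfs1 (Wolframin). MIN6 is a mouse insulinoma line that secretes insulin, and the cells were at passages 32 to 40. The control group had 3 samples without epinephrine and the chronic epinephrine group had 3 samples. In the study's scheme, cells of this group had 100 nM epinephrine over 3 days and were then kept without it over the next 2 days. The day on which RNA was taken is not named in the sources used here. All samples come from 1 line. The study's methods call its replicates biological and its samples independent, but neither they nor the labels say how the cultures of these libraries were kept apart, so the p-values measure the spread between these samples.

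IRE1α, PERK and ATF6 sit in the ER membrane and respond when unfolded proteins gather in the lumen. IRE1α is a kinase and an endoribonuclease that cuts Xbp1 mRNA, and the rejoined mRNA encodes the active factor XBP1s. PERK phosphorylates eIF2α, which slows translation in general and favours that of ATF4, while ATF6 moves to the Golgi, where site-1 and site-2 protease release its transcription factor domain. BBF2H7 is released by the same route. Wolframin is an ER membrane protein that restrains ATF6 signalling, and its loss causes Wolfram syndrome, in which beta cells are lost. Beta cells make proinsulin in large amounts, and the response is therefore much studied in them. Most of this activation is by phosphorylation, cleavage or splicing, which a gene's read count does not measure.

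The Xbp1 site shows this limit, and its sequence is given for that reason. In the reference transcript Xbp1-201, 26 bases of exon 4 are removed by IRE1α, in coding sequence at chr11:5524279-5524304 of GRCm38, on the plus strand. A junction primer of the study that spans the rejoined ends placed the removed stretch to within a few equivalent positions. The position with the CNG triplets of the IRE1 cut on both sides was taken. The removed bases are in capitals and 30 bases on either side are in lower case.
Xbp1 site: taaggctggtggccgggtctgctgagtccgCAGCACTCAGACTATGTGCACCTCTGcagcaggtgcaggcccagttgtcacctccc
The stretch is in 3 of the 4 annotated Xbp1 transcripts. Since 26 is not a multiple of 3, its removal shifts the reading frame. The deposited value is 1 expected count for the whole gene, so the spliced and unspliced forms could not be told apart, and all Xbp1 values below are for both together.

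All 9 are protein-coding genes, placed here by GENCODE M21 on GRCm38. On the plus strand are Eif2ak3 (ENSMUSG00000031668, chr6:70844515-70905245), Atf6b (ENSMUSG00000015461, chr17:34647146-34655074) and Xbp1 (ENSMUSG00000020484, chr11:5520659-5525893). On the minus strand are Ern1 (ENSMUSG00000020715, chr11:106394650-106487852), Atf6 (ENSMUSG00000026663, chr1:170704674-170867771), Creb3l2 (ENSMUSG00000038648, chr6:37327255-37442146), Mbtps1 (ENSMUSG00000031835, chr8:119508156-119558735), Mbtps2 (ENSMUSG00000046873, chrX:157535371-157598715) and Wfs1 (ENSMUSG00000039474, chr5:36966104-36989205). The table gives 1 value per gene and library.

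The libraries held 15017065 to 18127171 expected counts, of which the 9 genes took 16311 to 21410. Control 1 stood apart: its correlation with the other 5 libraries was 0.974 to 0.979 across genes on the log2 scale, whereas controls 2 and 3 correlated at 0.993 and the epinephrine libraries at 0.992 to 0.993. The test of each of the 9 genes is therefore also given without control 1, as are the counts of the pathway lists. All 15 beta-cell markers were expressed, and Ins2, Iapp and Chga were the highest, with Ins2 at 54439 to 79687 FPKM, so the cells carry the markers of their label. Of these markers Ins1 (log2 fold change -0.50, edgeR adjusted p = 0.0152) and Slc2a2, the glucose transporter (-0.76, edgeR adjusted p = 0.00434), passed as lower after epinephrine, where 2.63% of all genes passed. Without control 1 there were 6 lower and 2 higher, where 21.6% of all genes passed. Controls 2 and 3 also held transcripts of hepatocyte genes. Albumin (Alb) was at 16.7 and 40.3 FPKM there, against 0.10 in control 1 and 0.14, 0.22 and 0.16 after epinephrine, and the hepatocyte list without Ttr, 18 genes, summed to 53.8 and 126 FPKM in these controls against 10.3 to 12.0 in the other libraries. The fibrinogen gene Fga was listed at 0 in those other libraries and at 3.24 and 10.4 FPKM in controls 2 and 3. The comparison without control 1 rests on these same controls, and the part of the hepatocyte transcripts in any value below was not tested. Of 16 exocrine and duct markers 7 were at 0 in all libraries. Among the other highest markers, Krt7 was at 42.8 to 54.1 FPKM and Spp1 at 20.5 to 54.8 FPKM, Tat at 4.39 to 5.06 FPKM and Ttr at 726 to 1457 FPKM. The alpha-cell gene Gcg was at 174 to 203 FPKM in controls and at 363 to 391 FPKM after epinephrine (log2 fold change 1.02, edgeR adjusted p = 0.00199, and 0.96 without control 1). Of 12 fibroblast and leukocyte markers, 4 were high enough to be tested. With all 6 libraries only Cd68, a macrophage gene, passed (0.28 to 0.60 FPKM in controls against 1.75 to 2.73 FPKM after epinephrine). Without control 1, Col1a1 passed as higher too (log2 fold change 3.45, edgeR adjusted p = 0.000676). The list did not move one way. Of the other tested genes, the means of Col1a1 (0.35 against 1.41 FPKM) and Pdgfra were higher after epinephrine and that of Col1a2 was lower. Col1a1 was at 2.62, 1.59 and 0.03 FPKM in the epinephrine libraries. Mean levels were also lower for Ptprc, Lyz2, Itgam, Dcn (0.72 against 0.06 FPKM) and Col3a1 (0.60 against 0.06 FPKM), which were too low to be tested. In controls 1 to 3, Dcn was at 1.33, 0.10 and 0.74 FPKM and Col3a1 at 1.41, 0.08 and 0.30 FPKM, highest in control 1. In a bulk sample, fewer cells of a type and less RNA per cell cannot be told apart.

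Chronic epinephrine was compared with control to ask whether the sensors and their proteases change in transcript level. With all 6 libraries, none of the 9 genes passed the test, edgeR's quasi-likelihood test with an adjusted p under 0.05 over 12747 genes. In the background, 335 genes, or 2.63%, passed. Ern1 and Xbp1 had an unadjusted edgeR p under 0.05, and DESeq2, which called 5.09% of its genes, called Ern1 alone. The log2 fold change was above 0 for 7 of the 9 genes, with a median of 0.10 against -0.00 over all genes tested. Without control 1, 7 of the 9 genes passed, all higher after epinephrine, against a background of 12.1% of genes called higher and 21.6% called in either direction.

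Ern1 was the sensor that differed most. Its normalized level was 224, 153 and 152 CPM in controls 1 to 3 and 255, 247 and 261 CPM after epinephrine, where CPM is the count scaled to the library size. Every epinephrine library lay above every control, and control 1 lay closer to the epinephrine libraries than to the other controls. The group means were 177 ± 41.1 and 255 ± 6.82 CPM (SD, n = 3), and the log2 fold change was 0.53 (SE 0.15, 95% interval 0.19 to 0.87, edgeR adjusted p = 0.113). DESeq2 gave an adjusted p of 0.0365. Without control 1 the log2 fold change was 0.74 (interval 0.63 to 0.84, edgeR adjusted p = 2.04e-11), an increase of 66.5%.

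Eif2ak3, which encodes the eIF2α kinase PERK, was at 63.6, 51.4 and 56.4 CPM in controls and at 65.0, 65.3 and 69.2 CPM after epinephrine. On this TMM scale the groups did not overlap, but the lowest epinephrine library was only just above control 1. Scaled by library size alone, or as FPKM, control 1 lay above epinephrine libraries 1 and 2 (14.8 against 14.6 and 14.3 FPKM), and the groups overlapped. The log2 fold change was 0.22 (SE 0.10, interval -0.01 to 0.44, edgeR adjusted p = 0.303). It was 0.30 without control 1 (interval 0.17 to 0.44, edgeR adjusted p = 0.000850).

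Atf6 and Atf6b encode the paired membrane-bound factors ATF6α and ATF6β, and in both genes control 1 was the highest of the 6 libraries. Atf6 was at 176, 143 and 144 CPM in controls and at 161, 163 and 171 CPM after epinephrine. Atf6b was at 83.5, 56.8 and 60.3 CPM in controls and at 76.5, 76.5 and 78.1 CPM after epinephrine. The groups overlapped through control 1 only, since controls 2 and 3 were below all epinephrine libraries in both genes. The log2 fold change of Atf6 was 0.10 (interval -0.13 to 0.33, edgeR adjusted p = 0.670) and that of Atf6b was 0.21 (interval -0.12 to 0.53, edgeR adjusted p = 0.506). Without control 1 they were 0.20 and 0.40 (edgeR adjusted p = 0.00597 and 1.47e-05).

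Creb3l2 encodes BBF2H7, a membrane-bound factor of the ATF6 type known for its role in secretory load in cartilage. It was at 135, 79.8 and 82.0 CPM in controls and at 101, 97.0 and 103 CPM after epinephrine. Control 1 was far above all other libraries, and controls 2 and 3 were the lowest. The log2 fold change was 0.03 (interval -0.40 to 0.46, edgeR adjusted p = 0.959), and its sign turned when control 2 or control 3 was left out (-0.11 and -0.09) or when libraries were scaled by size alone (-0.0054). It was 0.31 without control 1 (interval 0.20 to 0.43, edgeR adjusted p = 0.000161).

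**Figure D1:**
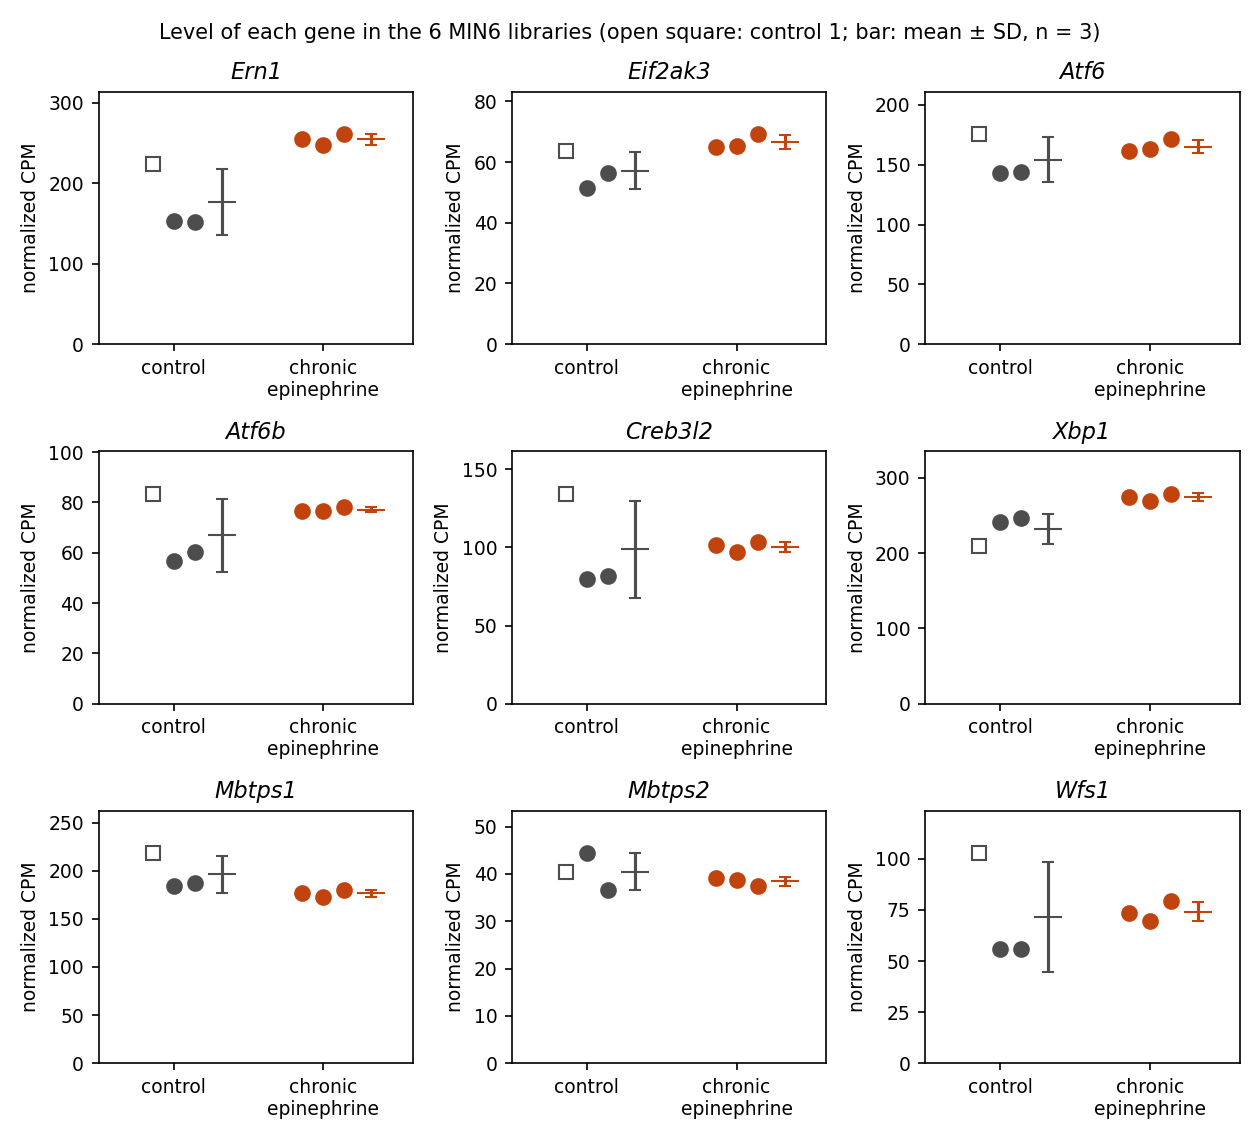
Normalized CPM of each of the 9 genes in the 6 libraries, with the y axis from 0, control libraries in grey (control 1 as an open square), chronic epinephrine libraries in orange, and the mean ± SD of 3 libraries beside them. Control 1 is the highest library for Atf6, Atf6b, Creb3l2, Mbtps1 and Wfs1 and the lowest for Xbp1, while the epinephrine libraries lie close together in every panel.

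Xbp1, the substrate of IRE1α and the gene of the factor XBP1s, was the only gene of the 9 whose control 1 value was the lowest of all libraries. It was at 209, 241 and 246 CPM in controls and at 275, 269 and 279 CPM after epinephrine. The groups did not overlap, and they did not overlap without control 1 either. The mean was 232 ± 20.0 CPM in controls and 274 ± 4.98 CPM in the epinephrine group (SD, n = 3), and the log2 fold change was 0.24 (SE 0.09, interval 0.04 to 0.45, edgeR adjusted p = 0.216). Without control 1 the difference was smaller, 0.17 (interval 0.07 to 0.27), and it passed the test (edgeR adjusted p = 0.0122).

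Neither protease was higher after epinephrine. Mbtps1, the subtilisin-type serine protease that makes the first cut in ATF6 and in the sterol factors SREBP, was at 218, 184 and 187 CPM in controls and at 177, 173 and 180 CPM after epinephrine. All epinephrine libraries lay below all controls, by a small margin from controls 2 and 3. The log2 fold change was -0.16 (interval -0.37 to 0.06, edgeR adjusted p = 0.436) and -0.07 without control 1 (interval -0.18 to 0.03, edgeR adjusted p = 0.336). Mbtps2, the metalloprotease that makes the second cut within the membrane, was at 40.3, 44.4 and 36.6 CPM in controls and at 39.2, 38.7 and 37.4 CPM after epinephrine. The groups overlapped with and without control 1. The log2 fold change was -0.07 (interval -0.29 to 0.14, edgeR adjusted p = 0.741), and -0.08 without control 1 (interval -0.24 to 0.08, edgeR adjusted p = 0.528). The value of Mbtps2 is the least certain of the 9: its counts were not whole in any library, its exons overlap Yy2 on the same strand, and 28.9% of its 50-base windows also occur in transcripts of other genes, most of them Yy2, so its reads may be shared in the authors' counting. The counts of the other 8 genes were whole, within 0.005, in all 6 libraries. Eif2ak3 overlaps exons of Gm43292 on the other strand, and whether the counting used strand is not given in the sources used here.

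Wfs1 was the gene most spread in the control group. It was at 103, 55.9 and 55.9 CPM in controls and at 73.7, 69.6 and 79.1 CPM after epinephrine. Control 1 was above every epinephrine library and the other controls were below every one. The means hardly differed, 71.5 ± 27.1 and 74.2 ± 4.79 CPM (SD, n = 3), with a log2 fold change of 0.05 (SE 0.22, interval -0.46 to 0.56, edgeR adjusted p = 0.930), and the sign turned without control 2 (-0.11) or control 3 (-0.10). Without control 1 the log2 fold change was 0.41 (interval 0.27 to 0.54, edgeR adjusted p = 2.61e-05), an increase of 32.5%.

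For 4 of the 9 genes the groups were fully separate in TMM-scaled CPM, with epinephrine above control for Ern1, Eif2ak3 and Xbp1 and below it for Mbtps1. In FPKM, or scaled by library size alone, they were separate for 3, since Eif2ak3 overlapped. Over all genes tested they did not overlap in 27.3%, and in 14.3% epinephrine was the higher group. An exact two-sided permutation test over the samples gave p = 0.1 for each of these 4 genes, the smallest that 3 against 3 allows. Full separation fixes this value, so it adds nothing to the separation itself. Without control 1, epinephrine was the higher group without overlap for 7 genes and the lower for Mbtps1, where the shares over all genes were 24% higher and 47.3% in either direction.

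**Figure D2:**
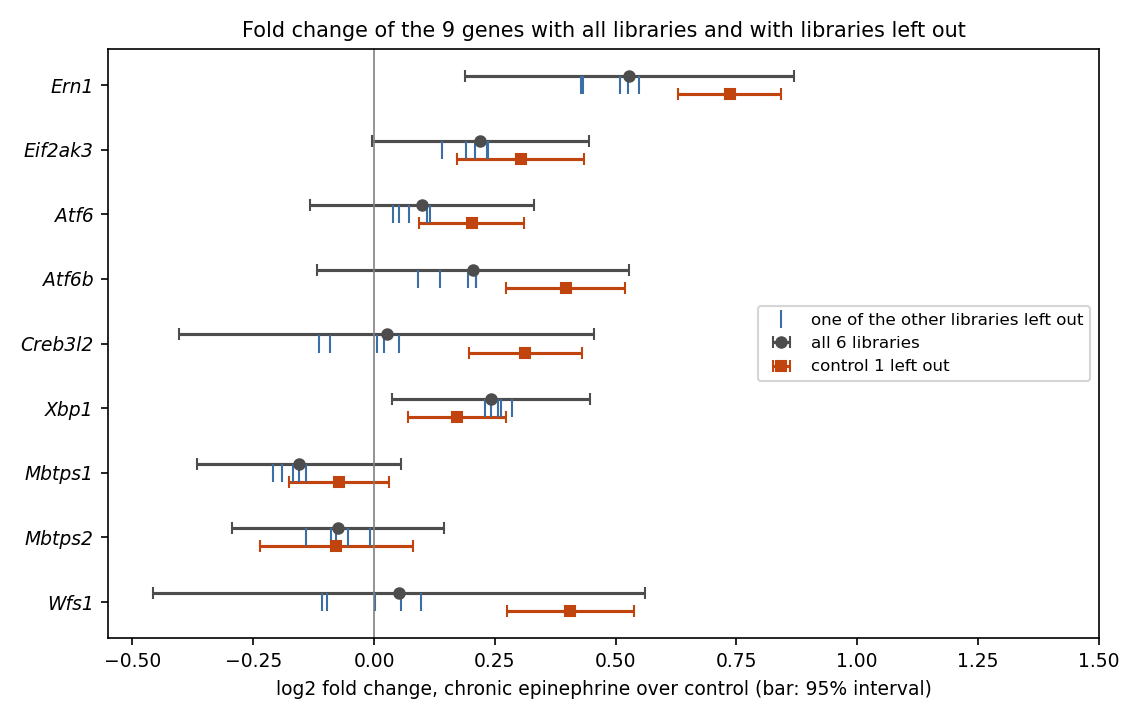
Log2 fold change of each of the 9 genes (x axis, chronic epinephrine over control) with all 6 libraries (grey) and with control 1 left out (orange), each with its 95% interval, and with each other library left out (blue ticks). The intervals without control 1 lie above 0 for 7 genes, and those of Mbtps1 and Mbtps2 include 0.

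In edgeR without an offset, the 7 genes passed only where control 1 was left out. Leaving out any of the other 5 libraries in turn gave 0 of 9 genes called, but those fits called 0.364% to 1.48% of all genes, so a count of 0 is near their background and is not a result about the 9 genes. Control 1 was above the mean of controls 2 and 3 by 1.84-fold for Wfs1, 1.66-fold for Creb3l2, 1.47-fold for Ern1, 1.43-fold for Atf6b, 1.22-fold for Atf6 and 1.18-fold for both Eif2ak3 and Mbtps1. It was 0.996 times that mean for Mbtps2 and 0.859 times for Xbp1. Among all genes tested, the departure of Wfs1 was at the 98.4th percentile and that of Creb3l2 at the 96.5th. The coefficient of variation in controls was 8.64 to 37.9% over the 9 genes (median 12.0%, against 13.5% over all genes), and after epinephrine it was 1.24 to 6.46% (median 2.68%, against 5.41%). The controls were the more variable group for all 9 genes, and for 79.6% of all genes.

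The departure of control 1 moved with transcript length. When genes were split by their longest annotated transcript into 4 classes of nearly equal number, the median log2 difference of control 1 from controls 2 and 3 was -0.24 in the shortest class, then -0.03 and 0.06, and 0.20 in the longest. Xbp1, with a longest transcript of 2129 bases, is in the shortest class, and its -0.22 was near the median of that class. Ern1, Atf6, Creb3l2 and Mbtps1, of 6789 to 7246 bases, are in the longest class. Atf6 and Mbtps1 were near its median, at 0.29 and 0.24, whereas Ern1 and Creb3l2 were above it, at 0.55 and 0.73. Wfs1, of 3787 bases, was at 0.88 in a class with a median of 0.06. With an alternative fit chosen after seeing the data, in which each library had an offset fitted to GC content and transcript length, Ern1 (0.62, edgeR adjusted p = 0.000498) and Eif2ak3 (0.26, edgeR adjusted p = 0.0264) passed with all 6 libraries, in a background of 10.4%. With the offset and without control 1, 8 of 9 genes passed in a background of 24.3%: the same 7 as higher and Mbtps1 as lower (-0.12, edgeR adjusted p = 0.0433).

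**Figure D3:**
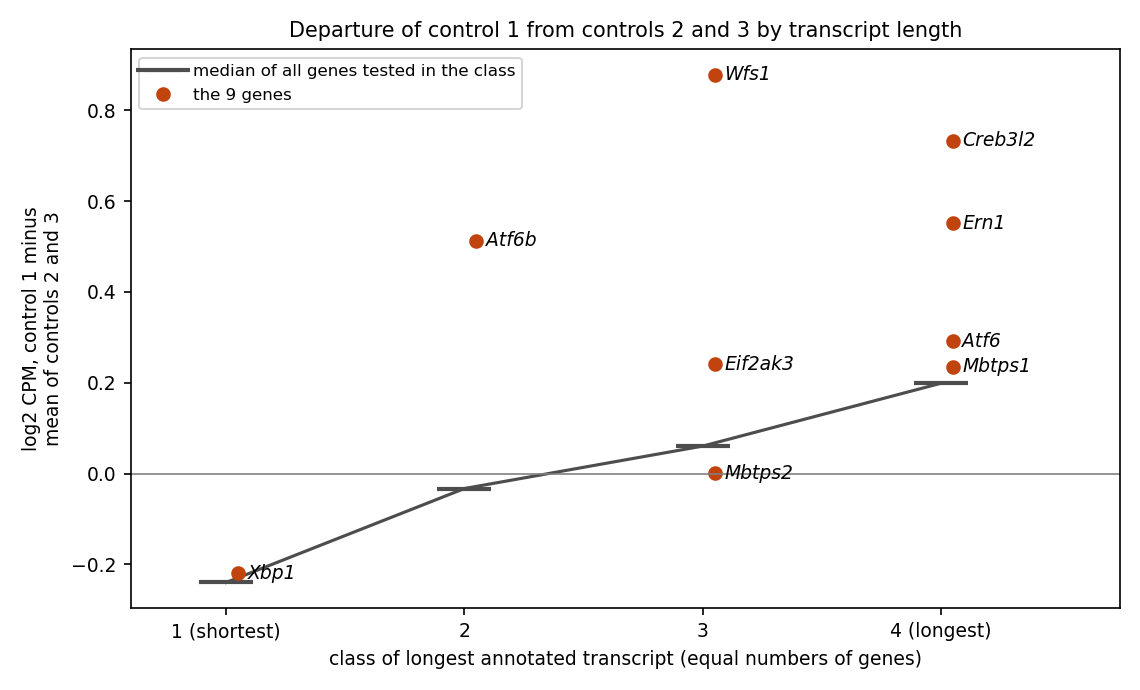
Log2 CPM of control 1 minus the mean of controls 2 and 3 (y axis) by class of transcript length (x axis), with the median of all genes tested in each class (grey) and the 9 genes (orange). The medians climb from -0.24 to 0.20, and Wfs1, Creb3l2, Ern1 and Atf6b lie well above the median of their class.

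Levels were compared between genes on the FPKM scale, which is per length. Xbp1 was the highest, at 121 ± 8.30 FPKM in controls and 143 ± 4.95 FPKM after epinephrine (SD, n = 3), and was above all others in every library. Next came Mbtps1 (47.2 ± 5.42 and 41.6 ± 0.94 FPKM) and Ern1 (30.8 ± 8.39 and 44.6 ± 1.30 FPKM), which changed places between the groups: Mbtps1 was above Ern1 in the 3 controls and below it in the 3 epinephrine libraries. Atf6b (26.3 ± 6.21 and 29.9 ± 0.27 FPKM), Atf6 (21.5 ± 2.98 and 22.6 ± 0.75 FPKM), Wfs1 (19.3 ± 7.49 and 19.6 ± 1.35 FPKM) and Creb3l2 (14.1 ± 4.70 and 14.1 ± 0.50 FPKM) followed. From Ern1 down to Creb3l2, each gene overlapped the next over the 3 controls and was clear of it after epinephrine. Eif2ak3 (13.1 ± 1.59 and 14.7 ± 0.51 FPKM) was above Creb3l2 in every library but control 1, although their ranges overlapped in both groups. Mbtps2 was the lowest in every library but control 2, where Creb3l2 was just below it (11.3 against 11.4 FPKM), at 9.49 ± 1.88 and 9.18 ± 0.37 FPKM.

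By the distance between their centred log2 profiles over the 6 libraries, the most alike pair of the 9 was Creb3l2 and Wfs1 (distance 0.15), followed by Eif2ak3 and Atf6 (0.17). Over all genes tested, those nearest to Ern1 were Aldh18a1, an enzyme of proline synthesis (0.10), Sv2c, a vesicle protein (0.10), and the ER chaperone Calr (0.11), where the median gene lay at 0.92. Calr, for instance, was at 438, 287 and 304 FPKM in controls and at 513, 489 and 517 FPKM after epinephrine, with the same high control 1 as Ern1. Those nearest to Xbp1 were Insig1, an ER protein of sterol sensing (0.05), Fam98a (0.07) and Fam114a1 (0.07), where the median gene lay at 0.52. Insig1 was at 50.6, 57.0 and 57.9 FPKM in controls and at 62.4, 62.9 and 65.7 FPKM after epinephrine. These likenesses are over 6 libraries that include the low or high control 1, and are descriptions.

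Genes that work with the 9 were followed in 5 lists of 62 genes, of which 60 were tested. Of 20 targets of ATF6 and XBP1s, 13 passed as higher and none as lower, where 2.63% of all genes passed in either direction, with a median log2 fold change of 0.55 against -0.00 over all genes. Sdf2l1, an ER lumen protein of the chaperone complex, was at 37.4, 36.0 and 40.1 FPKM in controls and at 91.4, 91.0 and 92.7 FPKM after epinephrine (log2 fold change 1.30, SE 0.08, edgeR adjusted p = 0.000400, and 1.28 without control 1). Its groups were far apart, with control 1 among the other controls. Creld2 rose by a log2 fold change of 0.87 (edgeR adjusted p = 0.00434, and 0.81 without control 1) and Hspa5, the chaperone BiP, by 0.62 (edgeR adjusted p = 0.00740, and 0.59 without control 1). The count of 13 depended on the libraries. Without control 1, 19 of the 20 passed as higher, and Srp19 did not, in a background of 12.1% called higher. The count fell to 7 without control 3 and 4 without control 2, where the shares over all genes also fell, to 1.48% and 0.839%. It was 2 without chronic epinephrine 2 or 3 (0.364% and 0.593% of all genes) and 1 without chronic epinephrine 1 (0.364%). Of the 6 libraries left out in turn, Creld2 kept its call in 5 and Hspa5 in 3.

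The PERK arm list shares Dnajc3 with the list of ATF6 and XBP1s targets, so this gene is in both counts. Of 17 genes, 6 passed as higher against the same 2.63%: Trib3, a pseudokinase (log2 fold change 1.40, edgeR adjusted p = 0.00123), Atf4, the factor favoured when eIF2α is phosphorylated (0.87, edgeR adjusted p = 0.00581), Ppp1r15a, the eIF2α phosphatase subunit GADD34 (0.74, edgeR adjusted p = 0.00600), Ddit3, Atf3 and Dnajc3. None passed as lower, and the other eIF2α kinases, the subunits of eIF2B and eIF2α itself (Eif2s1) did not pass. Without control 1, Eif2b5 and Ppp1r15b passed as well, which made 8, in a background of 12.1% called higher, and Trib3, Atf4 and Ppp1r15a had log2 fold changes of 1.48, 0.77 and 0.81. The count was 4 without control 2 or control 3, where 0.839% and 1.48% of all genes passed. It was 3 without chronic epinephrine 3 (0.593% of all genes) and 1 without chronic epinephrine 1 or 2 (0.364% in each).

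The lists that stand closest to the sensors and proteases are small, and at a background of 2.63% a count of 0 in them is not a result about these lists. Of 10 tested IRE1 partners, such as the tRNA ligase Rtcb that rejoins Xbp1 mRNA, none passed with 6 libraries, and Rtcb passed as lower without control 1 (-0.23, edgeR adjusted p = 0.00161). Of 9 tested substrates and escorts of the proteases, none passed, and without control 1 Scap, Insig1 and Creb3 passed as higher. Of 6 genes tied to Wolframin and to the turnover of ATF6, none passed, and without control 1 all but Cisd2 passed as higher, among them Syvn1, the ubiquitin ligase HRD1 (0.60). Edem1 of this list is also counted among the ATF6 and XBP1s targets. DESeq2 called 1 gene of this last list with 6 libraries, in a background of 5.09%, and the fit with the offset called 2, in a background of 10.4%. Over the 60 genes tested, 18 passed with 6 libraries and 34 without control 1, where the share over all genes also went from 2.63% to 21.6%. Leaving out chronic epinephrine 1 took the 18 down to 2, where the share over all genes also fell, to 0.364%. Trib3 and Sdf2l1 passed whichever library was left out.

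**Figure D4:**
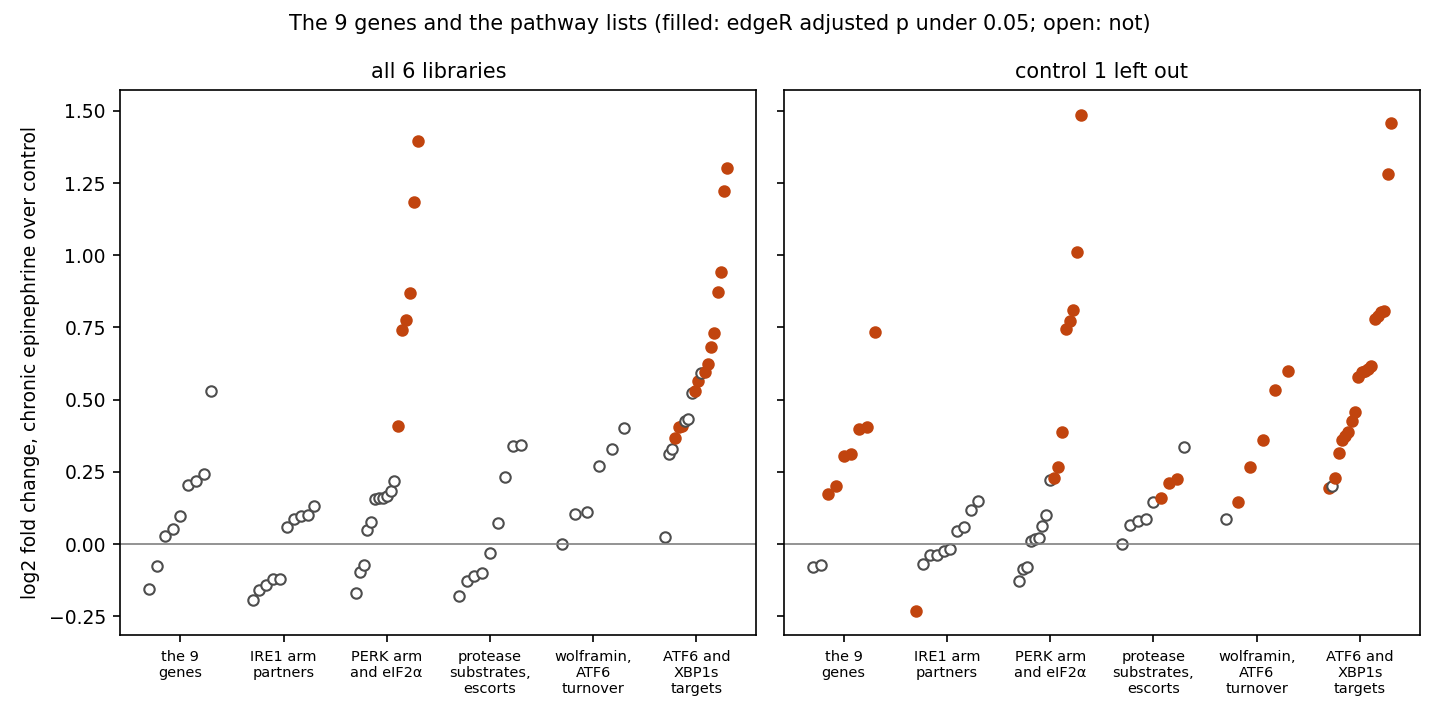
Log2 fold change (y axis) of the 9 genes and of the tested genes of 5 pathway lists, with all 6 libraries (left) and with control 1 left out (right), filled where the edgeR adjusted p is under 0.05. With all libraries the filled points are in the PERK arm (6) and among the ATF6 and XBP1s targets (13), and without control 1 they include 7 of the 9 genes. Dnajc3 is drawn in both of these lists.

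Promoters were searched for the elements through which these factors act, in 250 bases before to 50 after each start site (RefSeq, GRCm38.p6), on both strands. The ER stress response element, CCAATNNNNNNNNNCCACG, was in 0.119% of 32851 promoters and in 7 of the 16 ATF6 and XBP1s targets with a promoter in the table. Some genes are known as targets because of this element, so the count is no independent result. The matches are shown because they are the letters that ATF6 is known to act through, with the fixed letters in capitals, read on the strand of the match.
Hspa5 chr2:34772025-34772043: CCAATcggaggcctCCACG
Hsp90b1 chr10:86705638-86705656: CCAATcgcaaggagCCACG
Hsp90b1 chr10:86705533-86705551: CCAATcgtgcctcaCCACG
Calr chr8:84847075-84847093: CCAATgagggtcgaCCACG
Dnajc3 chr14:118937827-118937845: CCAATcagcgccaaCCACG
Pdia6 chr12:17266491-17266509: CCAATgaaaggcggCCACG
Creld2 chr15:88819520-88819538: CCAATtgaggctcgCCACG
Derl3 chr10:75893242-75893260: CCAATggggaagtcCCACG
Of these 7 genes, 6 passed as higher with all 6 libraries, at log2 fold changes of 0.41 (Dnajc3) to 1.22 (Derl3). Calr had 0.59 (edgeR adjusted p = 0.0798). Of the 9 targets with a promoter in the table and without the element, 5 passed as higher, and 2 of these, Dnajb11 and Herpud1, held the second ER stress response element, ATTGGNCCACG. Among the genes of the other lists, the element was also in Syvn1, which did not pass (0.27, edgeR adjusted p = 0.563).
Syvn1 chr19:6046532-6046550: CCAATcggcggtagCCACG
Of the 9 genes, 8 had a promoter in the table and none of these 8 held the element. Nor did they hold that second element (0.0365% of promoters), TGACGTGG (0.676%), the C/EBP-ATF element TGATGCAA (0.895%) or the cAMP response element TGACGTCA (1.79%). The end CCACG is shared by both ER stress response elements, and its complement lies within TGACGTGG, so such matches can overlap. The absence of a match says only that these letters are not in these windows. Atf6 had no entry.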

How the data were processed

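RNA-seq of MIN6 cells, 3 controls and 3 chronic epinephrine samples, was analysed from 1 table. The authors deposited expected counts and FPKM per gene. The genome build in the submitters' processing notes is GRCm38, and the aligner and counter are not given in the sources used here. Of the counts, 8.34% were 0.005 or more from a whole number, and all were rounded. Columns not tied to a sample numbered 0, and the table's pathway and ontology annotations were not used. Genes passing filterByExpr were tested with edgeR 4.0.16 (quasi-likelihood, TMM scaling, Benjamini-Hochberg adjustment over all genes tested, R 4.3.3). CPM values are TMM-normalized, and FPKM was used for levels between genes. Depth of 15017065 to 18127171 expected counts per library gave the 9 genes 565 counts or more per library. DESeq2 1.42.0, limma 3.58.1, other scalings, filters and a replicate block, and each library left out, were tried. Named genes are the 9 genes, the 3 called genes of smallest p in each pathway list, the genes of nearest profile and the highest markers. Beyond this rule, other list members, Alb, Gcg and Cd68 among them, were named after their values were seen. The members and lists were chosen with earlier results of these data known. Protein sequences were not analysed here.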

Additional observations from a re-analysis of the deposited data

How the results depend on the processing

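Over 17 alternatives, 2 of them (the offsets) chosen after seeing the data, the 9 genes gave 153 values, of which 130 kept their direction and side of the threshold, 18 newly passed and 5 turned in sign. Those that turned were Creb3l2 scaled by library size only (-0.0054), without control 2 (-0.11) and without control 3 (-0.09), and Wfs1 without control 2 (-0.11) and without control 3 (-0.10), while over all libraries left out Creb3l2 ranged from -0.11 to 0.31 and Wfs1 from -0.11 to 0.41. Leaving out each library in turn gave 0 to 7 of the 9 genes, 47 to 2798 of all genes and 2 to 34 pathway genes. The highest counts were without control 1, and the lowest without chronic epinephrine 1, where all genes also came to 47 without chronic epinephrine 2. The cause was not tested. Of all genes, 335 passed in the main test, 76.7% of them higher. DESeq2 called 729 genes (60.9% higher), 21 pathway genes and 1 of the 9. With the offset, 1329 genes (52.8% higher) and 2 of the 9 passed, and without control 1 as well 3149 genes, 35 pathway genes and 8 of the 9. With a replicate block 178 genes, 13 pathway genes and 0 of the 9 passed. Same-numbered samples deviated together at r of 0.05, 0.07 and -0.05, and differently numbered ones at -0.117 to 0.109. The departure of control 1 weighs on these values, so whether same-numbered samples shared a culture or a day was not tested. With CPM in place of FPKM, 4 of the 9 genes kept their rank.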
